A study of Arabidopsis thaliana with 12 samples.

Results

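Pentatricopeptide repeat (PPR) proteins are encoded in the nucleus and bind organelle transcripts through arrays of short helical repeats, each of which helps to recognise a base of the RNA. In plants they direct editing, splicing, stabilisation and translation of chloroplast and mitochondrial transcripts. The chloroplast members are made in the cytosol and must be imported, and the study compared toc120, an Arabidopsis thaliana mutant labelled as impaired in import across the outer chloroplast envelope, with wild type (WT).

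The genes described are CRR21, OTP70, OTP85 and AT3G22690, each with a probe that the platform annotation assigns to it alone. They were chosen with earlier results of these data known. AT3G22150, a further listed PPR gene with such a probe, is described separately below. The probes of the 4 genes are among 692 probes with 1 gene and 3439 probes in all. CRR21 (chlororespiratory reduction 21) is known as an editing factor of the plastid ndhD transcript, which encodes a subunit of the thylakoid NADH dehydrogenase-like (NDH) complex. OTP85 (organelle transcript processing 85) is also known as an ndhD editing factor. OTP70 (organelle transcript processing 70) is known for a part in splicing the plastid rpoC1 transcript, which encodes a subunit of the plastid RNA polymerase. For AT3G22690 the annotation used here gives the locus alone. The locus is among those listed below as plastid editing factors, and no target transcript is stated here.

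Total RNA was measured on 12 arrays, 6 of toc120 and 6 of WT, and both genotypes carry the Columbia 0 label. The labels state neither the kind of mutation nor the tissue, the plant age or whether each sample came from its own plants. The spread behind the p-values is that of these 12 samples and may be technical. No 1-gene probe carries TOC120, and no tissue is labelled, so neither the genotype nor a tissue could be checked against marker genes. In total RNA, fewer cells that make a transcript and less of it per cell cannot be told apart.

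The values are linear intensities between 0 and 100 as deposited. The values of an array summed to 2641 to 3553 for WT and to 2688 to 3686 for toc120. The median probe had an intensity of 0.151 to 0.157 on the WT arrays and of 0.188 to 0.278 on those of toc120, a higher level in the mutant before scaling. The comparison therefore used quantile-normalised values, with the deposited intensities given beside them. Differences are on the scale log2(intensity + 0.0261), which understates changes of dim probes.

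The 4 genes did not share a direction. CRR21 was 2.23-fold higher in toc120, OTP70 was 3.19-fold lower, and OTP85 and AT3G22690 were listed at 0 on most arrays of both genotypes. A call by itself is common in this comparison. At an adjusted p under 0.05 by limma, 46.1% of all probes were called over the 12 arrays, 21.4% higher and 24.8% lower in toc120. With arrays of neighbouring number averaged first, because their residuals correlated (limma's consensus correlation 0.506), 31.5% were called, 14.6% higher and 16.9% lower. That 2 of the 4 genes were called is thus near the background share.

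CRR21 stood at a deposited intensity of 0.1914 to 0.264 on the 6 WT arrays, with a median of 0.2023. On the 6 toc120 arrays it stood at 0.5079 to 0.9993, with a median of 0.8003. Every toc120 array lay above every WT array. Of all probes, 22.7% showed such a separation upward in the deposited values. The WT arrays were tight, the highest being 1.38 times the lowest, whereas the toc120 arrays spread 1.97-fold. Within toc120, arrays 1 and 2 were the lowest, at 0.5079 and 0.559, and arrays 3 to 6 stood at 0.7649 or above. Neighbouring arrays differed at most 1.3-fold in WT and 1.15-fold in toc120.

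**Figure D1:**
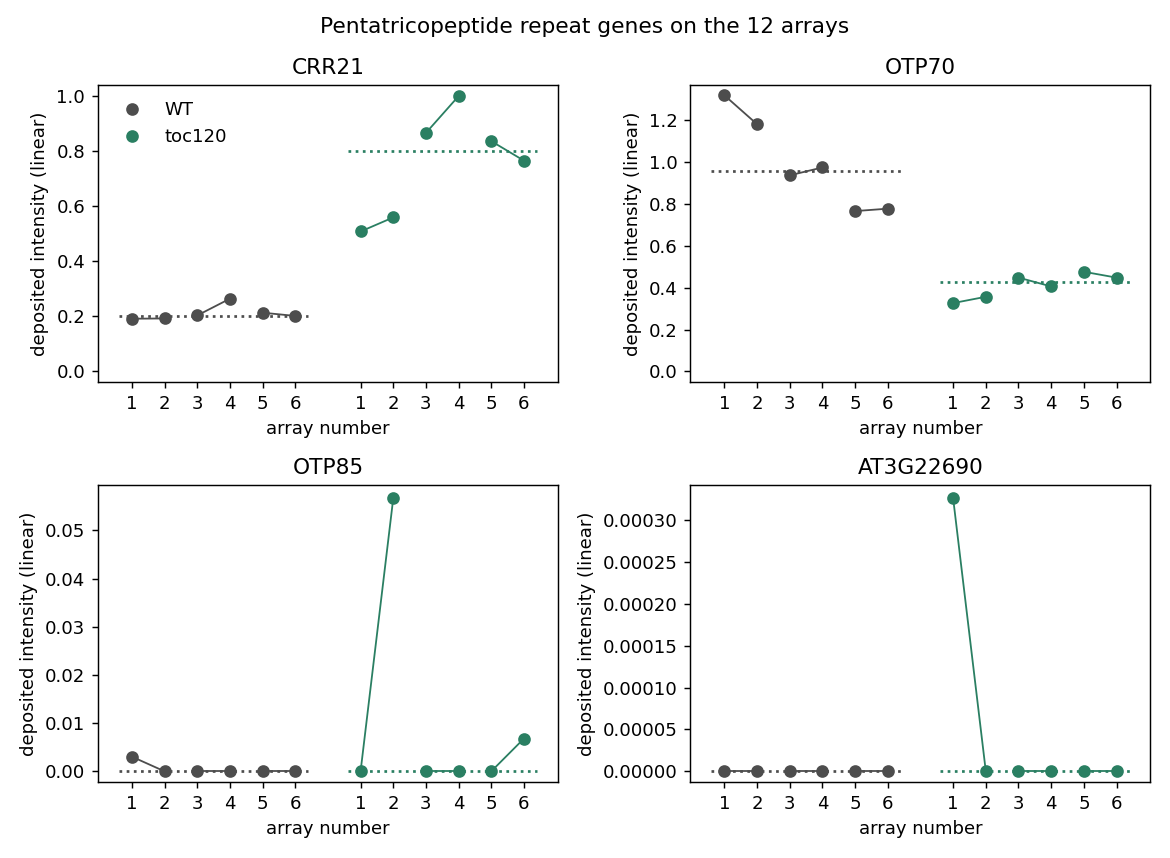
Deposited intensity (linear, vertical axis, a separate range in each panel) of the 4 PPR genes on each array (horizontal axis, array number, WT on the left and toc120 on the right). Points are arrays, lines join neighbouring numbers and dotted lines are medians; CRR21 is higher on all toc120 arrays, OTP70 is lower on all of them, and OTP85 and AT3G22690 lie at or close to 0.

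After quantile normalisation CRR21 was at 0.2712 ± 0.0166 in WT and 0.6471 ± 0.141 in toc120 (SD over 3 means of neighbouring arrays per genotype). The log2 difference was 1.16 (SE 0.13, 95% interval 0.88 to 1.44, limma adjusted p = 1.98e-05 over the 12 arrays). With neighbours averaged it was the same size with a wider interval, 0.71 to 1.61, and a limma adjusted p of 0.00897. Ranked among all probes by rise, CRR21 was number 325, within the top 9.45%. Its rank on an array, which no scaling of whole arrays alters, moved from the 57.7 to 64.6 percentile in WT to the 74.7 to 84.8 percentile in toc120.

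OTP70 went the other way. It stood at 0.7654 to 1.318 on the WT arrays, with a median of 0.9549, and at 0.3263 to 0.4758 on the toc120 arrays, with a median of 0.4267. Every toc120 array lay below every WT array, a downward separation that 6.51% of all probes showed in the deposited values. For OTP70 it was WT that spread more, 1.72-fold against 1.46-fold in toc120. WT arrays 1 and 2 were the highest, at 1.318 and 1.18, and arrays 5 and 6 the lowest, at 0.7654 and 0.777. Neighbouring arrays differed by no more than 1.12-fold in either genotype.

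After quantile normalisation OTP70 was at 1.161 ± 0.325 in WT and 0.3401 ± 0.0547 in toc120 (SD over 3 means of neighbouring arrays per genotype). On the log2 scale it fell by 1.67 (SE 0.15, 95% interval -2.01 to -1.33, limma adjusted p = 4.95e-06 over the 12 arrays). With neighbours averaged the interval was -2.27 to -1.08 and the limma adjusted p was 0.00678. By size of fall it was number 83 of all probes, within the lowest 2.41%. Its rank on an array moved from the 86.7 to 92.5 percentile in WT to the 61.0 to 71.5 percentile in toc120.

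**Figure D2:**
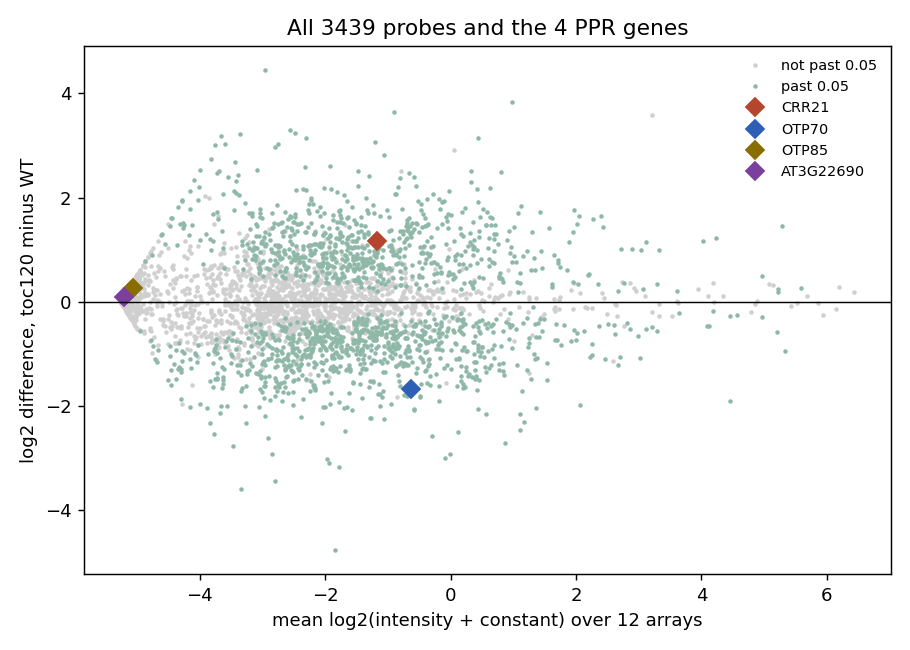
Log2 difference between toc120 and WT (vertical axis) against the mean log2(intensity + constant) over the 12 arrays (horizontal axis) for all 3439 probes, coloured by whether they passed an adjusted p of 0.05, with the 4 PPR genes as diamonds. CRR21 lies at 1.16 and OTP70 at -1.67, both in the middle of the level range, while OTP85 and AT3G22690 sit at the dim end.

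The size of both differences varied with the array number. Over all probes, the deviations of equal-numbered arrays from their genotype means correlated after quantile normalisation, with r of 0.217 to 0.348. The quantile-normalised intensity of OTP70 was highest on arrays 1 and 2 in WT, at 1.629 and 1.442. In toc120 it was highest on arrays 5 and 6, at 0.4139 and 0.3866, and lowest on arrays 3 and 4, at 0.3052 and 0.2814. As deposited, arrays 1 and 2 were the highest in WT and the lowest in toc120. In deposited intensity, CRR21 in toc120 over WT ran from 2.65-fold at number 1 to 4.26-fold at number 3. OTP70 in WT over toc120 ran from 1.61-fold at number 5 to 4.04-fold at number 1. After quantile normalisation the log2 difference of CRR21 was 0.85 and 0.95 at numbers 1 and 2, 1.19 and 1.13 at numbers 3 and 4, and 1.44 and 1.38 at numbers 5 and 6. That of OTP70 was -2.28 and -2.01 at numbers 1 and 2, -1.53 and -1.70 at numbers 3 and 4, and -1.21 and -1.31 at numbers 5 and 6. The numbers with the smallest rise of CRR21 were thus those with the largest fall of OTP70. All 6 numbers gave the same direction for each gene. The labels do not say what the numbers stand for, and their part in the size of the differences was not tested.

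**Figure D3:**
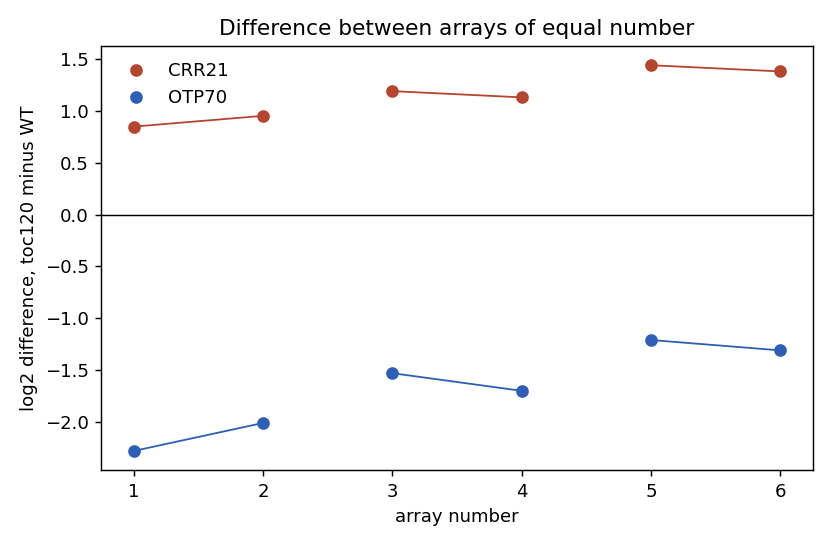
Log2 difference between the toc120 and the WT array of equal number (vertical axis, quantile-normalised) at each array number (horizontal axis) for CRR21 and OTP70, with lines joining neighbouring numbers. CRR21 is above 0 and OTP70 below 0 at all 6 numbers, from 0.85 to 1.44 and from -2.28 to -1.21.

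That CRR21 and OTP70 moved unequally does not depend on a factor applied to a whole array, since it can be read within each array. Quantile normalisation is not such a factor, and the ratio given is of deposited intensities. The intensity of CRR21 divided by that of OTP70 was 0.145 to 0.279 on the WT arrays, with a median of 0.238, and 1.56 to 2.46 on the toc120 arrays, with a median of 1.73. The median ratio was 7.27 times as high in toc120. The ratio itself has no meaning for relative abundance, because the probes may differ in response, and its change gives neither a direction nor a size for either gene alone.

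How the change was divided between the genes did depend on the scaling. In the intensities as deposited, where the median probe was 0.23 higher in toc120 on the log2 scale, CRR21 was up by 1.69 (limma adjusted p = 7.56e-06) and OTP70 fell by 1.21 (limma adjusted p = 4.7e-05). With every array scaled to the same median, where the median probe was at -0.04, the values were 1.14 for CRR21 (limma adjusted p = 3.24e-06) and -1.78 for OTP70 (limma adjusted p = 3.74e-06). A larger constant before the logarithm, 0.24, gave 0.78 and -1.25. As deposited, 33.8% of probes were called higher and 11.6% lower, and with equal medians 19.1% and 27.1%. Both genes passed in their direction under these 3 scalings with and without averaging. Among all probes 10.5% did so upward and 5.15% downward.

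**Figure D4:**
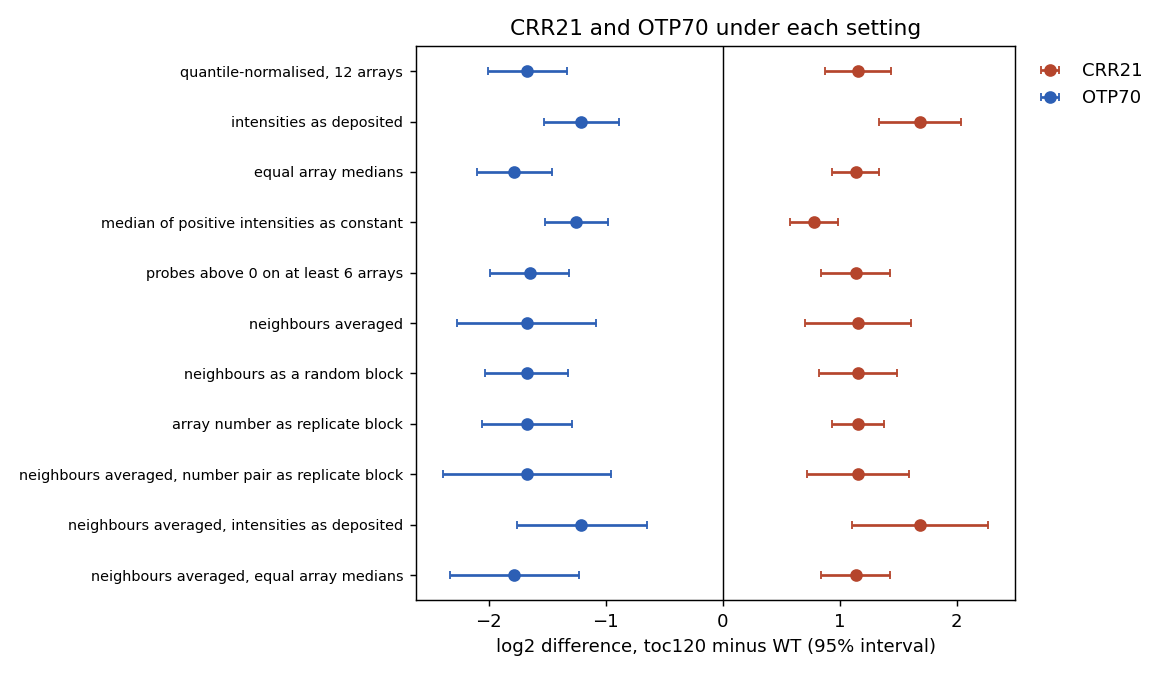
Log2 difference between toc120 and WT (horizontal axis) with its 95% interval (bars) for CRR21 and OTP70 under 11 settings of scaling, constant, filter and fit (vertical axis). The CRR21 intervals all lie above 0 and the OTP70 intervals all lie below 0.

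OTP85 was listed at 0 on 5 of 6 WT arrays and 4 of 6 toc120 arrays. The readings above 0 were 0.003043 on WT array 1, 0.05667 on toc120 array 2 and 0.006802 on toc120 array 6. On the neighbour of each of these arrays the probe was listed at 0. The highest reading stood at the 27.6 percentile of its array. The genotypes overlapped, the probe did not pass (limma adjusted p = 0.519 over the 12 arrays and 0.547 with neighbours averaged), and no fold is given.

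For AT3G22690 all 6 WT arrays and 5 of 6 toc120 arrays were listed at 0. The single reading above 0 was 0.0003261, on toc120 array 1, and its neighbour was listed at 0. The probe did not pass (limma adjusted p = 0.446 over the 12 arrays and 0.515 with neighbours averaged). A probe at or near 0 is not unusual on these arrays. Of all probes 7.3% were above 0 on at most 1 array, as AT3G22690 was, and 11.8% on at most 3, as OTP85 was. For the 1-gene probes the shares were 8.24% and 12.1%. A listing at 0 does not show that the transcript was absent, and these arrays allow no statement on whether either gene differs between the genotypes. CRR21 and OTP70, by contrast, were above 0 on all 12 arrays, as were 73.0% of probes.

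Few other genes of organelle RNA metabolism had a probe of their own. The lists held 42 loci of PPR proteins with a known organelle function, among them the 4 genes above. Of the 20 listed as plastid editing factors, 4 had a 1-gene probe: CRR21, OTP85, AT3G22690 and AT3G22150. CRR21 was higher and the other 3 did not pass. Of the 13 listed for plastid splicing, stability or translation, only OTP70 had one, and of the 9 mitochondrial PPR genes none had one. The gene table names no further PPR gene among the 1-gene probes by symbol or synonym, although it carries no descriptions, so others may be among them. After quantile normalisation the median log2 difference was 0.18 for the 4 genes described, against 0 over all probes. The median over all probes depended on the scaling, being 0.23 as deposited and -0.04 with equal array medians. The median of the 4 genes is set by OTP85 and AT3G22690. For CRR21 and OTP70, which were above 0 on every array, the median was -0.26. With a single rise and a single fall, neither median describes the genes.

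AT3G22150, the additional locus on the editing list, was measured above 0 on all 12 arrays but was dim. It stood at 0.03883 to 0.123 in WT, with a median of 0.08026, and at 0.01407 to 0.1296 in toc120, with a median of 0.05376. The genotypes overlapped throughout this range. The log2 difference was -0.59 (SE 0.36, limma adjusted p = 0.216 over the 12 arrays and 0.315 with neighbours averaged). It thus passed in neither fit, and its standard error was more than that of CRR21 or OTP70.

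A further 4 probes are shared between several genes that include a listed PPR locus, and they cannot be assigned to a gene. Of these, 1 was higher in both fits, as were 14.4% of all probes, and 3 did not pass. Their log2 differences ran from -0.02 to 0.74.

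The NDH complex, whose ndhD transcript CRR21 and OTP85 are known to edit, was represented by 2 of 22 listed nuclear genes. NdhS, a subunit near the ferredoxin-binding site of the complex, was bright, at 17.72 to 26.03 in WT with a median of 20.33 and at 12.16 to 18.59 in toc120 with a median of 16.54. It was lower over the 12 arrays (log2 difference -0.17, SE 0.06, limma adjusted p = 0.0443) but did not pass with neighbours averaged (0.204). Its rank on an array was the 99.1 to 99.2 percentile in both genotypes, and the size of its difference varied with the scaling. NdhS was at -0.44 in the intensities as deposited (limma adjusted p = 0.0222, and 0.193 averaged) and, once arrays were scaled to the same median, at -1.04 (0.000335, or 0.0377 for averaged neighbours). NdhN, another nuclear subunit, had a reading of 0 on 3 arrays of WT and 5 of toc120 and did not pass (limma adjusted p = 0.572). The edited or spliced plastid transcripts themselves were not measured, as 0 of the 1-gene probes carry a plastid or mitochondrial gene.

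The remaining lists gave no value that can be assigned to a gene. None of the 19 editing cofactors, the 8 other plastid splicing factors, the 20 plastid transcription genes or the 6 plastid RNA decay genes had a 1-gene probe. Of the editing cofactors 1 locus, and of the splicing factors 1, lie on a probe annotated with more than a single gene. The 1877 probes with no annotated gene may hold more of them.

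The genes on 1-gene probes whose pattern was most like that of each member were found by the root mean square difference of log2 values over the 12 arrays, each gene centred on its own mean. For CRR21 these were AT3G32930 (0.179), AT1G06510 (0.183) and AT5G26850 (0.194), where CRR21 itself varied by 0.615 about its mean. Their log2 differences between genotypes were 1.23, 1.32 and 1.16. For OTP70 they were AT4G33540 (0.137), AT3G57630 (0.266) and AT4G21170 (0.27), where OTP70 itself varied by 0.874. Their log2 differences were -1.52, -1.86 and -1.59. All 6 of these genes were above 0 on all 12 arrays. The measure is small for any gene whose genotypes differ by a like amount, and all genes share the same 12 arrays and their number pairs. For OTP85 the closest were AT5G44150, AT5G67490 and AT1G76220, which were above 0 on 1, 2 and 3 arrays. For AT3G22690 they were AT4G12740, AT2G47680 and AT5G22620. AT4G12740 was above 0 on all 12 arrays, and the last 2 were listed at 0 on every array. AT3G22690 itself varied by 0.142 about its mean. OTP85 varied by 0.529, with most arrays listed at 0 and its highest reading on toc120 array 2. A likeness to a profile with so few readings above 0 carries no information on the genes.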

How the data were processed

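Expression was measured in 6 toc120 and 6 WT samples, grouped by their titles. The authors deposited 1 table of linear intensity values, 3439 probes by 12 arrays. Neither the labels nor the table say which array was used or how background and scale were treated. Spot-level values were not used, and precision is limited by the number of arrays. Names come from GEO's platform annotation, matched by gene identifier to the TAIR10.1 gene table (690 of 692 1-gene probes), and no coordinates are given. Of the 117 listed loci, 116 were in that table.

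Arrays were quantile-normalised and compared as log2(value + 0.0261), the constant being the 5th percentile of positive values, with limma 3.58.1 (lmFit and eBayes, two-sided) in R 4.3.3. P-values were Benjamini-Hochberg adjusted over all 3439 probes, with a threshold of 0.05. A second fit averaged neighbouring numbers (1 and 2, 3 and 4, 5 and 6) first. The fit was also run on simulated arrays in which few probes changed, each by more than the fitted fold of CRR21 or OTP70. That run does not show how the fit behaves where as many probes differ as here. Deviations of equal-numbered toc120 and WT arrays correlated with r of 0.217 to 0.348, and 12 of 12 arrays correlated best with their own number, so the numbers appear to pair the samples. This pairing comes from the data, and fits with the number as a block were run as alternatives. Other alternatives were the scaling, the constant, a filter for probes above 0 on at least 6 arrays, a random block and leaving out each array. Named genes were the 4 members, listed loci with a 1-gene probe, and the 3 genes most alike to each member. The members and lists were chosen with earlier results of these data known. Figures used matplotlib 3.10.9 in Python 3.11.15.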

Additional observations from a re-analysis of the deposited data

Results flagged for a closer look

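In groups of 6 arrays, a reading was singled out where its gap to the nearest other over the group's whole range was above Dixon's 95% critical value, in deposited intensity. Of 13 groups with any spread, 5 held such a reading. Chance marks about 1 in 20 groups of evenly measured values, but this share does not apply to a group with a single reading above 0, where the gap always equals the range. CRR21 on WT array 4 was at 0.264, against 0.2133 for the next highest WT array, and without this array the log2 difference was 1.19 (limma adjusted p = 4.32e-05). OTP85 on WT array 1 (0.003043), AT3G22690 on toc120 array 1 (0.0003261) and NdhN on toc120 array 2 (0.01652) were such single readings. OTP85 on toc120 array 2 was at 0.05667, against 0.006802 on toc120 array 6 and 0 on the other 4 arrays. These 4 readings lay on arrays numbered 1 or 2. No cause was tested.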

How the results depend on the processing

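CRR21 and OTP70 kept their direction and passed under all 22 alternatives. The log2 difference ran from 0.78 to 1.69 for CRR21 and from -1.78 to -1.21 for OTP70, with limma adjusted p up to 0.0239 and 0.0289, both highest for averaged neighbours with a replicate block for the number pair. That block and the array number as a block (0.000195 and 0.000384) changed no call of the 4 genes. Leaving out 1 array at a time gave 1.11 to 1.24 for CRR21, -1.76 to -1.57 for OTP70, -0.05 to 0.34 for OTP85 and 0 to 0.11 for AT3G22690. The fitted value of OTP85, 0.27, turned to -0.0517 without toc120 array 2, which held its only reading over 0.01. OTP85 and AT3G22690 passed under none of their 21 alternatives and were removed by the filter. AT3G22150 passed under none of its alternatives. The count over all probes, 1587, became 979 for averaged neighbours with that replicate block (482 higher, 497 lower), 899 with neighbours averaged as deposited (710 higher, 189 lower) and 912 with neighbours averaged and equal medians (370 higher, 542 lower). Over the 12 arrays, 1164 were higher and 400 lower as deposited, against 735 and 852. The files give no signal over background, so a reading at 0 cannot be set against a detection limit.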
